A study of Homo sapiens with 18 samples.

Results

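The mucin genes MUC1, MUC4, MUC13, MUC16, MUC20, MUC5AC and MUC5B were followed across 18 RNA-seq libraries. The libraries came from PANC1, COLO357 and SUIT2, 3 established human lines of pancreatic ductal adenocarcinoma. The genes were chosen by name as 7 of the 63677 gene identifiers in the count tables, and each symbol matched 1 identifier: ENSG00000185499 for MUC1, ENSG00000145113 for MUC4, ENSG00000173702 for MUC13, ENSG00000181143 for MUC16, ENSG00000176945 for MUC20, ENSG00000215182 for MUC5AC and ENSG00000117983 for MUC5B. Each line gave 6 libraries: 1 after a control siRNA, 2 after siRNAs against KMT2D (siRNA1 and siRNA2) and 3 after siRNAs against KMT2C (siRNA1, siRNA2 and siRNA3). All cells, controls included, had been transfected for 48 h, and the comparison asks which transcripts change when either gene is lowered. KMT2C and KMT2D encode histone H3 lysine 4 methyltransferases that act mainly at enhancers. Each siRNA gave 1 library per line, and the labels name no repeat culture of any condition. The spread behind each p-value is therefore that between libraries, which mixes differences between siRNAs or lines with technical spread. In bulk RNA fewer cells making a transcript and less transcript per cell cannot be told apart.

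Mucins are large glycoproteins whose repeat-rich backbones carry dense O-linked sugars. Secreted gel-forming mucins, here MUC5AC and MUC5B, link into the polymers that give mucus its viscosity, while transmembrane mucins, here MUC1, MUC4, MUC13, MUC16 and MUC20, stand on the apical membrane of epithelial cells as a barrier and can pass signals inward. Normal pancreatic ducts make little gel-forming mucin. Several mucins, MUC1, MUC4, MUC5AC and MUC16 among them, are known to be present in pancreatic cancer or its precursor lesions. MUC16 carries the CA125 antigen, and MUC1 is the carrier of several sugar epitopes used as tumour markers.

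The gene counts of a library came to between 14205640 and 32115894. The siRNA targets were read first. KMT2D stood at 34.8% to 84.7% of the same line's control in the 6 KMT2D siRNA libraries. KMT2C stood at 43.2% to 82.1% of control in 8 of the 9 KMT2C siRNA libraries and at 116% in the library labelled PANC1 KMT2C siRNA2, which therefore goes against its label. In edgeR's quasi-likelihood test, with adjustment over all 21028 genes tested, neither target passed an adjusted p of 0.05 against control (KMT2D with its siRNAs, adjusted p = 0.211, KMT2C with its siRNAs, adjusted p = 0.437). Between KMT2C and KMT2D siRNA both passed, KMT2D being higher and KMT2C lower with KMT2C siRNA. However, KMT2D stood at 99.1% to 372% of control with KMT2C siRNA, and KMT2C at 92.7% to 274% with KMT2D siRNA. The comparison between targets therefore does not measure lowering alone. The share of listed read pairs outside any annotated feature was 7.49% to 16.5% in 15 libraries. It was 30.4% in COLO357 with KMT2C siRNA3, and in SUIT2 it was 25.0% with KMT2C siRNA2 and 22.2% with KMT2C siRNA3. The ductal epithelial markers (KRT7, KRT8, KRT18, KRT19, EPCAM, CDH1, CFTR, SLC4A4, ELF3 and CLDN4) summed to 4538 to 5725 CPM (a gene's count relative to the total of its library, with totals scaled by trimmed mean of M values, TMM) in COLO357, to 3135 to 7112 CPM in SUIT2 and to 848 to 1229 CPM in PANC1, where CFTR had no read. Mesenchymal markers summed to 1423 to 2636 CPM in PANC1, 92.7 to 213.5 CPM in COLO357 and 245 to 862 CPM in SUIT2, and their part in the differences between lines was not tested. These markers did not all follow the sums. By edgeR CDH2, SPARC, VIM and ZEB1 were lower than in PANC1 in both other lines. SNAI2 was higher than in PANC1 in both, and FN1 was higher in COLO357. Fibroblast markers (COL1A1, COL1A2, DCN, LUM, PDGFRB and ACTA2) summed to 52.1 to 180 CPM in PANC1, 23.4 to 152 CPM in COLO357 and 2.29 to 8.13 CPM in SUIT2. Acinar markers summed to at most 0.452 CPM in every library. Leukocyte markers summed to at most 0.890 CPM in PANC1 and COLO357 and to 3.20 to 9.78 CPM in SUIT2, of which LYZ made 2.33 to 8.30 CPM. Of the endothelial markers PECAM1 had no read in any line, while CDH5 stood at 4.64 to 27.9 CPM in COLO357.

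Where the genes lie differs between them. By GENCODE v29, MUC1 is on chromosome 1, MUC4, MUC13 and MUC20 on chromosome 3, MUC16 on chromosome 19, and MUC5AC and MUC5B side by side on chromosome 11. The union of annotated exons runs from 3499 bases for MUC13 to 43830 bases for MUC16. RefSeq (GRCh38.p14) gave a promoter for 4 of the 7 genes. The 250 bases before the start site are shown for MUC1 and MUC13, whose order between SUIT2 and PANC1 was opposite, and for MUC16, whose level ranged most widely between lines. All are on the minus strand and are written 5′ to 3′ with the start site just after the last base, at chr1:155192916-155193165 for MUC1, chr3:124934752-124935001 for MUC13 and chr19:9065752-9066001 for MUC16. Capitals mark matches, on either strand, to 7 short motifs: a TATA box, a GC box, a STAT site, a forkhead site, a GATA site, an E-box and an AP-1 site, each spelled out after the sequences.
MUC1: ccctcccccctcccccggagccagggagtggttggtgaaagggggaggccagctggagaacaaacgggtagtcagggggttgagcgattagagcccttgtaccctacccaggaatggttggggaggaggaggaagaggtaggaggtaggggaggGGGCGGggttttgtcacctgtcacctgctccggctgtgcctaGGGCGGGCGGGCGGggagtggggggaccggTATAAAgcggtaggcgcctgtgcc
MUC13: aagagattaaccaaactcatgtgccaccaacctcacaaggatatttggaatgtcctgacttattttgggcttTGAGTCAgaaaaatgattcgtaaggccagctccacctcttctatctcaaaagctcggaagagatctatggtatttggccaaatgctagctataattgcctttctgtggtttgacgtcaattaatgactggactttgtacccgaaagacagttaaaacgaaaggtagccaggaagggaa
MUC16: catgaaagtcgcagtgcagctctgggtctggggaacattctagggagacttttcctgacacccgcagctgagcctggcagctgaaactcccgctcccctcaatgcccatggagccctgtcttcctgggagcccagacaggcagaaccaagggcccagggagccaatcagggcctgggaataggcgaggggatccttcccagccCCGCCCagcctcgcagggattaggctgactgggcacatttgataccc

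The MUC1 window held a TATA box 24 bases before the start site and 4 GC boxes, of which 3 overlap in 1 run. MUC13 held 1 AP-1 match, 178 bases before the start site, and no TATA or GC box. MUC16 held 1 GC box at this start site. Over the table's windows of 300 bases, of which the last 50 are not shown, GC content was 65.7% for MUC1, 62.0% for MUC16 and 41.0% for MUC13, against a median of 58.3% over 27305 promoters. The letters TATAAA, searched as the TATA box, were present in 12.0% of those promoters. The GC box was searched as GGGCGG and was the most widespread of the 7, present in 44.6%. The AP-1 site, bound by FOS and JUN proteins, was searched as TGANTCA, where N is any base, and was present in 7.8%. The site of STAT factors was searched as TTCNNNGAA and was present in 7.9%, though in none of the 3 windows shown. Another motif absent from these windows was the forkhead site, searched as TGTTTAC and present in 3.4% of promoters. The same held for the GATA site, which was searched as AGATAA and was present in 10.5%. It held as well for the E-box bound by MYC, searched as CACGTG and present in 7.4%. RefSeq also lists a second start site for MUC1 and for MUC16. A match describes the letters only.

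**Figure D1:**
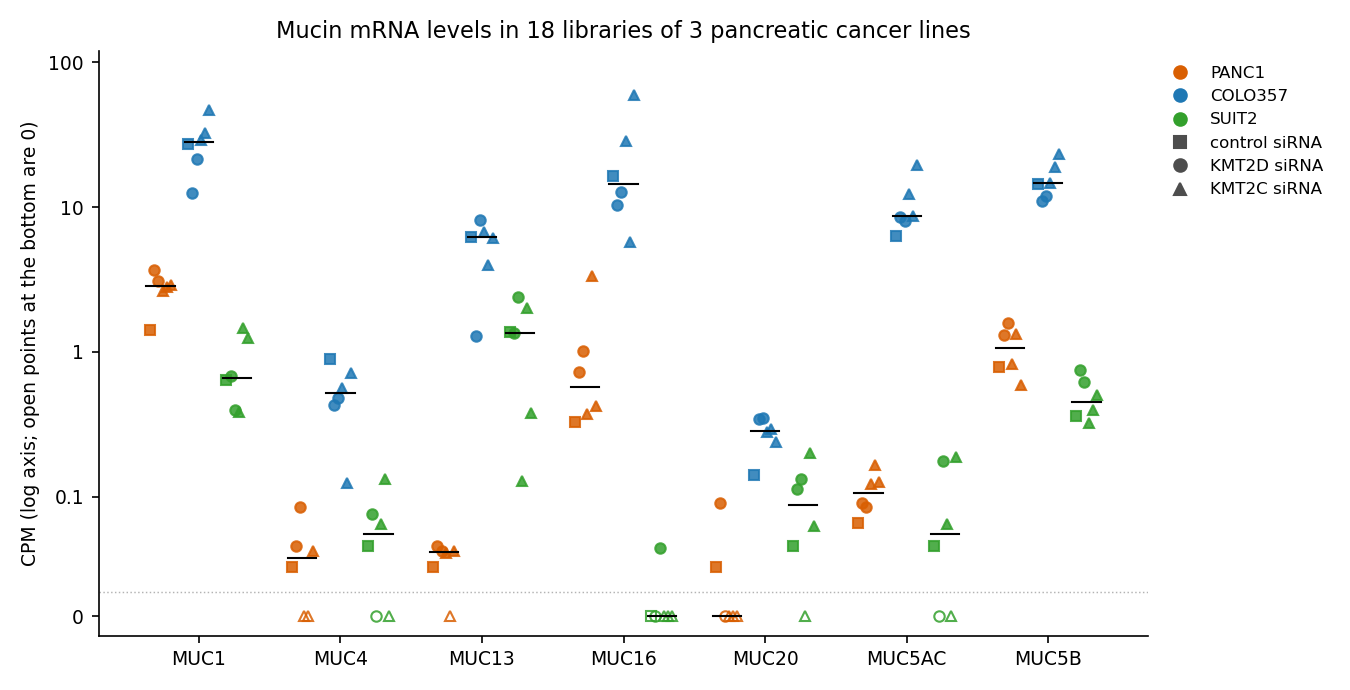
Level of each mucin in every library, in CPM on a log axis, with lines by colour, siRNA target by marker shape and the line's median as a black bar; open markers at the bottom are libraries with no read. COLO357 holds the highest point of all 7 genes, MUC13 is the member for which SUIT2 stands clearly above PANC1, and MUC16 was read once in the 6 SUIT2 libraries.

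By mean level all 7 mucins were most abundant in COLO357, although the COLO357 and SUIT2 ranges overlapped for MUC4, MUC13 and MUC20. How many of all genes are highest in COLO357 was not counted. Summed over the 7 genes, mucin mRNA came to 44.6 to 157 CPM in COLO357, 2.70 to 7.65 CPM in PANC1 and 0.969 to 4.20 CPM in SUIT2, so that COLO357 did not overlap the other lines. Levels per kilobase of exon compare genes only roughly. The exon lengths came from another genome build than the counts, and read pairs without a unique alignment entered no gene. What such read pairs take from each mucin was not tested. The mean level in COLO357 was 6.01 ± 2.44 CPM per kb for MUC1 (SD, n = 6), 1.55 ± 0.692 for MUC13, 0.845 ± 0.250 for MUC5B, 0.607 ± 0.276 for MUC5AC, 0.508 ± 0.456 for MUC16, 0.0646 ± 0.0182 for MUC20 and 0.0251 ± 0.0124 for MUC4. MUC1 came first and MUC13 second, each above the next gene by more than either SD. MUC5B and MUC5AC differed by less than the SD of MUC5AC, and MUC5AC and MUC16 by less than the SD of either. MUC16 lay above MUC20 by less than its own SD. In PANC1 the order was led by MUC1 (0.586 ± 0.159 CPM per kb) and MUC5B (0.0576 ± 0.0209). In SUIT2 MUC13 came first (0.362 ± 0.252) and MUC1 second (0.170 ± 0.0960), which overlap within their spread.

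MUC1 was the most abundant of these mucins per kilobase in COLO357 and PANC1. Its level in COLO357 ran from 12.6 to 47.0 CPM with a median of 28.2, in PANC1 from 1.42 to 3.68 CPM with a median of 2.87, and in SUIT2 from 0.388 to 1.47 CPM with a median of 0.658. The 3 ranges nearly separate: the lowest PANC1 library, the control, lies below the highest SUIT2 library. In edgeR's quasi-likelihood fit of line plus target, COLO357 exceeded PANC1 with a log2 difference of 3.31 ± 0.28 (SE; adjusted p = 6.94e-10), a fold of 9.92, and SUIT2 lay below PANC1 by a log2 difference of -1.83 ± 0.31 (adjusted p = 3.00e-05).

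MUC13, a transmembrane mucin of the gut and biliary surface, took another order. PANC1 held 5 reads in its 6 libraries, at most 0.0454 CPM. SUIT2 held 0.129 to 2.38 CPM with a median of 1.36, and COLO357 1.29 to 8.14 CPM with a median of 6.17. SUIT2 therefore stood above PANC1, by 4.95 ± 0.75 on the log2 scale (edgeR, adjusted p = 1.06e-05), and below COLO357, by a log2 difference of -2.13 ± 0.45 (adjusted p = 0.000399). With 5 reads on the PANC1 side, the pooled ratio of SUIT2 to PANC1 was 40.2, with a 95% counting interval of 16.9 to 126.

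MUC16 spanned the widest range. COLO357 held 5.72 to 59.8 CPM with a median of 14.5, and PANC1 0.329 to 3.33 CPM with a median of 0.574. In SUIT2 a single read was counted, in KMT2D siRNA2 (0.0441 CPM), and the 5 libraries without a read allow up to 0.117 to 0.211 CPM each, the value of 3 counts. COLO357 exceeded PANC1 by 4.44 ± 0.57 on the log2 scale (edgeR, adjusted p = 2.57e-06). SUIT2 against COLO357 also passed (adjusted p = 7.04e-08), with a pooled ratio of COLO357 to SUIT2 of 2323 whose counting interval, from 416 to 91780, covers counting error only.

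MUC4, a membrane mucin that can bind the receptor ERBB2, was barely read. COLO357 held 65 reads over its 6 libraries (0.125 to 0.896 CPM), PANC1 5 reads and SUIT2 6 reads, with 2 libraries at 0 in each. MUC4 passed the filter on low counts only through COLO357, so its higher level there (log2 difference from PANC1 3.71 ± 0.60, edgeR adjusted p = 1.11e-05) is partly fixed by the filter. PANC1 and SUIT2 could not be told apart at this depth (log2 difference 0.49, 95% interval -1.31 to 2.28, adjusted p = 0.652).

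Both gel-forming mucins on chromosome 11 were highest in COLO357. MUC5AC, the main gel-former of gastric surface mucus, stood at 6.32 to 19.6 CPM in COLO357 with a median of 8.64, at 15 reads in all in PANC1 (0.0659 to 0.166 CPM) and at 9 reads in SUIT2 (at most 0.188 CPM, with 2 libraries at 0). The COLO357 excess over PANC1 was 6.52 ± 0.36 on the log2 scale (edgeR, adjusted p = 2.70e-13), and like MUC4 the gene passed the filter only through COLO357. SUIT2 and PANC1 differed by -0.40 (95% interval -1.64 to 0.84, adjusted p = 0.587), which is within their spread.

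MUC5B, a gel-former of airway and gallbladder mucus, was read in all 18 libraries. Its level was 10.97 to 23.4 CPM in COLO357 (median 14.6), 0.590 to 1.57 CPM in PANC1 (median 1.07) and 0.323 to 0.755 CPM in SUIT2 (median 0.451). COLO357 lay above PANC1 by 3.90 ± 0.26 (edgeR, adjusted p = 1.06e-11) and SUIT2 below PANC1 by a log2 difference of -1.06 ± 0.30 (adjusted p = 0.00446), although the PANC1 and SUIT2 ranges overlap.

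MUC20, a membrane mucin known to bind the receptor MET, had 3 reads in PANC1, 11 in SUIT2 and 35 in COLO357 (0.141 to 0.350 CPM). It had at most 8 reads in any library, failed the filter and was not tested. By annotation 42.8% of its exon bases are shared with MUC20-OT1, a non-coding gene on the same strand read at 5.41 to 21.5 CPM, so read pairs from MUC20 may have been set aside as ambiguous. Its low count is therefore uncertain. The overlaps of MUC1 with AL713999.1 (1.0% of exon bases) and of MUC5B with MUC5B-AS1 (2.3%, opposite strand) involve neighbours with no read.

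The direction of some line differences was fixed in part by the filter: MUC4 and MUC5AC passed it only through COLO357, MUC13 through COLO357 and SUIT2, and MUC16 through COLO357 and PANC1. MUC1 and MUC5B passed it in every line, and both were higher in COLO357 than in PANC1 and lower in SUIT2 than in COLO357. With the other 4 tested genes the calls came to 6 of 6 in each of these comparisons, from which nothing is read. The background was high, since edgeR called 66.8% of all genes tested for COLO357 against PANC1 and 59.7% for SUIT2 against COLO357. For SUIT2 against PANC1, where 59.3% of genes were called, 1 mucin was higher (MUC13), 3 were lower (MUC1, MUC5B and MUC16) and 2 were not called (MUC4 and MUC5AC).

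Ductal epithelial markers did not follow the same order of lines. They were higher than in PANC1 for 9 of 10 genes in COLO357 and 10 of 10 in SUIT2, and between SUIT2 and COLO357 2 were higher and 2 lower (median log2 difference 0.14). KRT7, a duct keratin, had a median of 695 CPM in COLO357, 185 CPM in SUIT2 and 2.75 CPM in PANC1. CFTR, the duct chloride channel, had a median of 14.0 CPM in SUIT2 and 0.0718 CPM in COLO357. Whether markers and mucins differ in this respect was not tested. KRT7 and CFTR are named after their values had been seen.

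**Figure D2:**
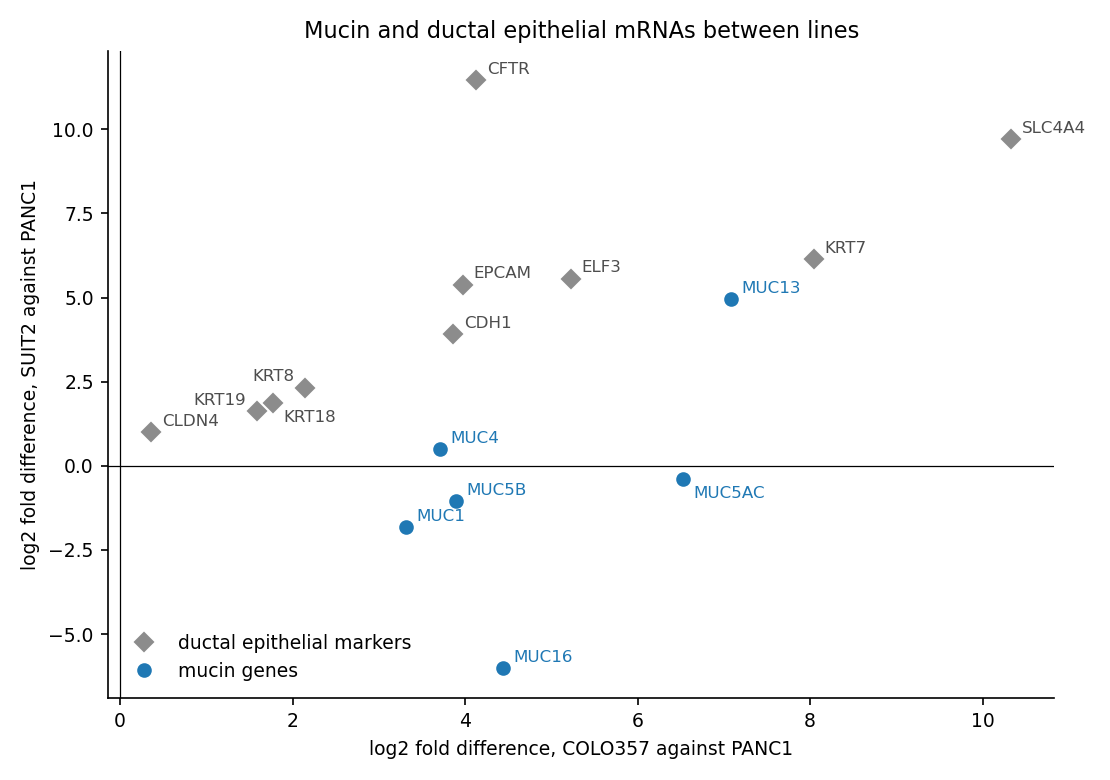
Log2 fold difference of each gene in COLO357 against PANC1 (horizontal) and in SUIT2 against PANC1 (vertical), from edgeR's fit over 18 libraries, for 6 tested mucins and 10 ductal epithelial markers. All 16 points lie right of 0, all 10 epithelial markers lie above 0, and of the mucins MUC13 is far above 0 while MUC1, MUC5B, MUC16 and the uncalled MUC5AC lie below it; the MUC16 value rests on 1 read in SUIT2.

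Genes that make, regulate or bind mucins had no single order of lines. For COLO357 against PANC1, edgeR called 66.8% of all genes, 7298 higher and 6746 lower. Of 16 tested transcription factors 10 were higher and 4 lower, and of 14 sialyl- and fucosyltransferases 9 were higher and 5 lower. Of 14 GalNAc transferases, which start O-glycans, 8 were higher and 5 lower, and of 13 core and extension enzymes 6 and 6. Of 13 receptors and partners 4 were higher and 5 lower, of 11 folding and secretion genes 4 and 5, and of 9 sheddases and proteases 5 and 3. For SUIT2 against COLO357, where 59.7% of all genes were called, 10 of the transcription factors were higher and 3 lower. Sialyl- and fucosyltransferases gave 6 higher and 5 lower, GalNAc transferases 5 and 5, and core and extension enzymes 8 and 3. Receptors and partners gave 8 higher and 2 lower, folding and secretion genes 5 and 2, and sheddases and proteases 4 and 0. AGR2, a disulfide isomerase that folds gel-forming mucins, was highest in PANC1, with a median of 143 CPM against 80.6 CPM in COLO357 and 73.9 CPM in SUIT2. In edgeR's fit AGR2 was nevertheless called higher in SUIT2 than in COLO357, against the order of these medians. The next 5 genes were picked after their values had been seen, as ones highest in COLO357. SPDEF, a transcription factor of mucous cell differentiation, stood at a median of 13.8 CPM in COLO357, 0.0490 CPM in PANC1 and 0.0314 CPM in SUIT2. FUT3, the fucosyltransferase that completes the Lewis antigens carried by mucins, followed that pattern, with a median of 4.63 CPM in COLO357 and 0 CPM in both other lines. MSLN, the membrane protein that binds MUC16, was at 86.8, 17.4 and 0.224 CPM in COLO357, SUIT2 and PANC1. FOXA1 was at 64.5, 12.0 and 1.09 CPM in the same order, and ST6GALNAC1, which makes the sialyl-Tn sugar, at 33.7, 4.74 and 0.0634 CPM, so the medians of these 3 genes lay between the other lines in SUIT2, as that of MUC13 did.

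Of the remaining mucins 8 did not pass the filter on low counts, and MUC6 and MUC12 were chosen after their values had been seen. Of the other 3 gel-forming mucins only MUC6 was tested, with a median of 3.44 CPM in COLO357, 0.601 CPM in PANC1 and 0.261 CPM in SUIT2. MUC12, a membrane mucin of the colon, ran against the 7 genes: its median was 0.941 CPM in PANC1, 0.213 CPM in SUIT2 and 0.0536 CPM in COLO357, and COLO357 lay below PANC1 by a log2 difference of -3.80 ± 0.42 (edgeR, adjusted p = 4.59e-08). MUC12 reached the level of the filter only in PANC1, so that direction is partly fixed by the filter.

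No mucin passed the threshold with either siRNA target. With KMT2D siRNA against control, 0 of 6 tested mucins were called by edgeR and 0 by DESeq2, and none had an unadjusted p under 0.05, where edgeR called 1.2% of all genes. With KMT2C siRNA against control, 0 of 6 were called by either tool against 0.281% of all genes, and 1 gene, MUC5AC, had an unadjusted p under 0.05. Between KMT2C and KMT2D siRNA 0 of 6 were called by either tool, none had an unadjusted p under 0.05, and 5.17% of all genes were called. Of all 21028 genes tested, edgeR gave 2651, 1930 and 4642 an unadjusted p under 0.05 in the 3 comparisons. The median log2 fold change of the tested mucins was 0.12, 0.46 and 0.22 in the 3 comparisons, where the medians over all genes were 0.02, 0.00 and -0.01. The comparisons against control share the 3 control libraries. All 3 counts were also 0 without the library labelled PANC1 KMT2C siRNA2, and without the 3 libraries with over 20% of read pairs in no annotated feature, an alternative chosen after seeing the data.

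**Figure D3:**
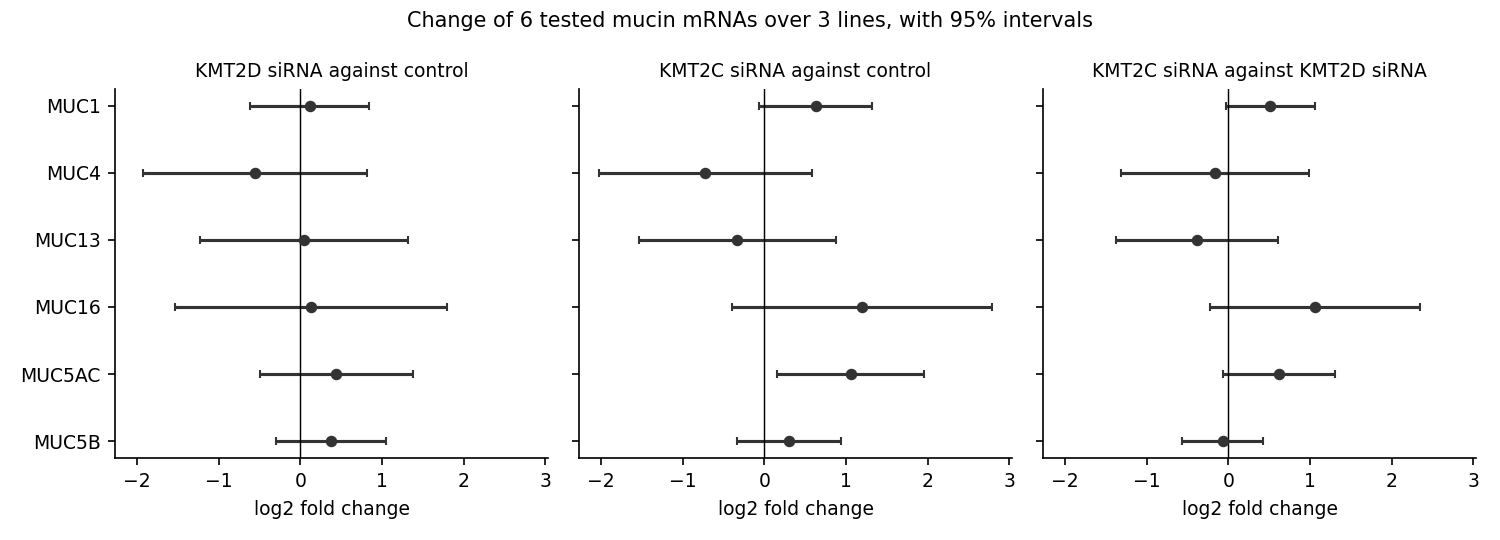
Log2 fold change of the 6 tested mucins over 3 lines with its 95% interval (edgeR's fit of line plus target, 18 libraries), for KMT2D siRNA against control, KMT2C siRNA against control and KMT2C against KMT2D siRNA. Every interval includes 0 apart from MUC5AC with KMT2C siRNA (0.16 to 1.96), which did not pass adjustment over all genes.

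MUC5AC, named above as the gel-former of gastric mucus, was the mucin with the smallest p for KMT2C siRNA. In COLO357 it stood at 6.32 CPM with control siRNA, at 8.60 and 8.05 CPM with KMT2D siRNA1 and siRNA2, and at 12.3, 8.68 and 19.6 CPM with KMT2C siRNA1, siRNA2 and siRNA3. The control was the lowest of these 6 libraries. Over the 3 lines 8 of 9 KMT2C libraries and 5 of 6 KMT2D libraries lay above their own control, although PANC1 and SUIT2 rest on 24 reads in all. The fitted log2 fold change was 1.06 ± 0.43 with KMT2C siRNA (SE, edgeR adjusted p = 0.454) and 0.44 ± 0.45 with KMT2D siRNA (95% interval -0.50 to 1.38, adjusted p = 0.755).

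By siRNA, MUC5AC differed from control by log2 values of 0.92, 0.48 and 1.56 with KMT2C siRNA1, siRNA2 and siRNA3 and by 0.34 and 0.53 with KMT2D siRNA1 and siRNA2. The siRNA3 value had the smallest adjusted p of the mucins in any siRNA comparison (edgeR, 0.110). COLO357 KMT2C siRNA3, the library with 30.4% of read pairs in no annotated feature, held the highest MUC5AC level. Without it the KMT2C log2 fold change was 0.78 (edgeR, adjusted p = 0.642), still above control. With the share of such read pairs as a covariate the log2 fold change was 0.78 as well (edgeR, adjusted p = 0.775).

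MUC16 varied widely between siRNAs of 1 target. In COLO357 it stood at 16.5 CPM with control siRNA, at 10.3 and 12.6 CPM with KMT2D siRNA1 and siRNA2, and at 28.5, 5.72 and 59.8 CPM with KMT2C siRNA1, siRNA2 and siRNA3. The KMT2C libraries thus held both the highest and the lowest value of the line. In PANC1 the control held 0.329 CPM (10 reads), KMT2D siRNA1 and siRNA2 0.726 and 1.02 CPM, and KMT2C siRNA1 and siRNA3 0.370 and 0.422 CPM. The library labelled PANC1 KMT2C siRNA2 held 3.33 CPM, the highest of the line, and is the one in which KMT2C was not lower and KMT2D stood at 372% of control.

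The fitted log2 fold change of MUC16 was 1.19 ± 0.76 with KMT2C siRNA (95% interval -0.40 to 2.79, edgeR adjusted p = 0.666), 0.13 ± 0.79 with KMT2D siRNA (-1.53 to 1.80, adjusted p = 0.974) and 1.06 ± 0.61 between them (adjusted p = 0.321). The KMT2C value was 0.656 without COLO357 KMT2C siRNA3, 2.15 without the COLO357 control and 0.371 with the share of read pairs in no annotated feature as a covariate. Single libraries set the values by siRNA, which were 0.67, 1.05 and 1.55 for KMT2C siRNA1, siRNA2 and siRNA3. Without COLO357 KMT2C siRNA2 the siRNA2 value was 2.95 and passed (edgeR, adjusted p = 0.0213), resting then on the library labelled PANC1 KMT2C siRNA2. Without that library it was -1.43. Without COLO357 KMT2C siRNA3 the siRNA3 value was -0.95. With no filter on low counts MUC16 passed between KMT2C and KMT2D siRNA (log2 fold change 1.03, edgeR adjusted p = 0.00611) and with KMT2C siRNA3 (1.52, adjusted p = 0.000934), and MUC5AC passed with KMT2C siRNA3 (1.54, adjusted p = 0.0313).

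**Figure D4:**
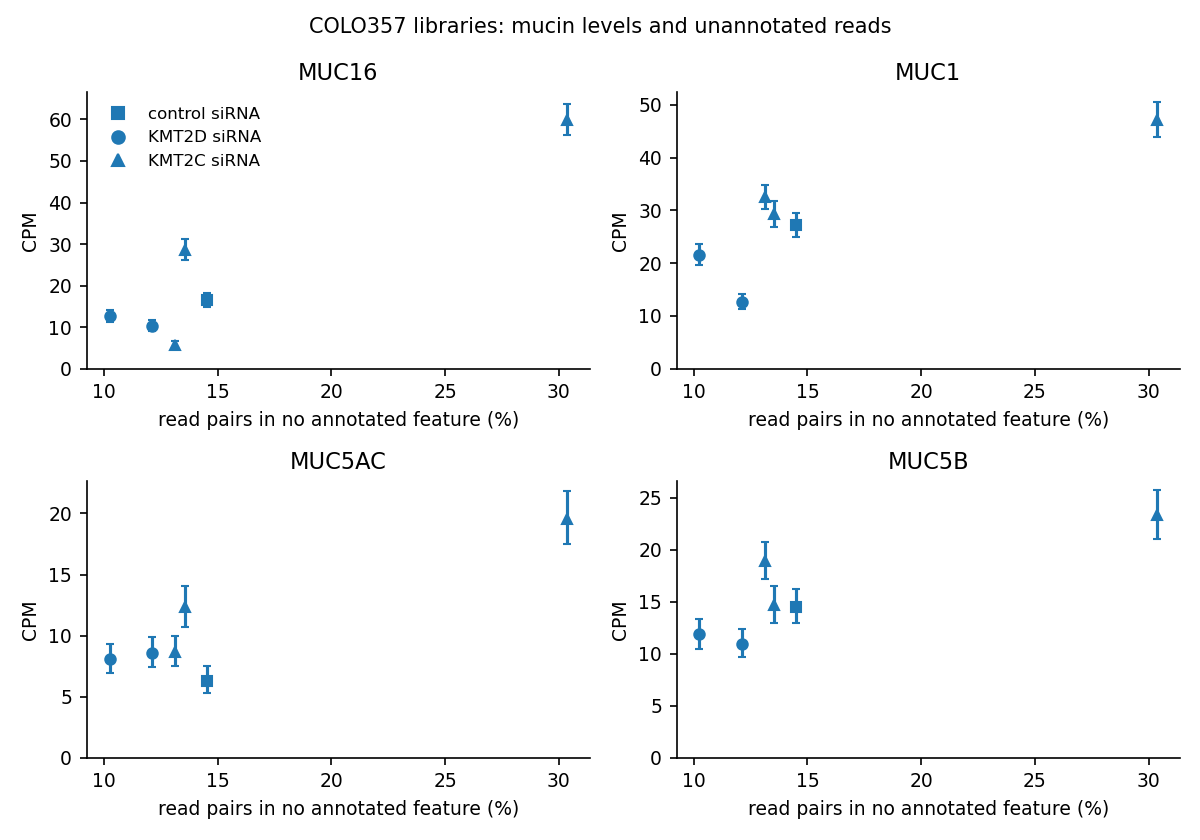
MUC16, MUC1, MUC5AC and MUC5B in the 6 COLO357 libraries, in CPM with exact 95% counting intervals, against the percent of listed read pairs in no annotated feature. The KMT2C siRNA3 library, at 30.4%, holds the highest value of all 4 genes, from 19.6 CPM for MUC5AC to 59.8 CPM for MUC16, while the other 5 libraries lie between 10.2% and 14.5%.

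MUC1 showed no shared direction with KMT2D siRNA. In COLO357 it stood at 27.1 CPM with control siRNA, at 12.6 and 21.6 CPM with KMT2D siRNA and at 29.2, 32.4 and 47.0 CPM with KMT2C siRNA1, siRNA2 and siRNA3, so the 2 targets lay on opposite sides of the control. In PANC1 the control, at 1.42 CPM (43 reads), was below all 5 siRNA libraries, which held 3.68 and 3.11 CPM with KMT2D siRNA and 2.63, 2.83 and 2.91 CPM with KMT2C siRNA. In SUIT2 the control at 0.637 CPM (14 reads) lay inside the range of the others. Fitted within lines, the KMT2D log2 fold change was 1.26 ± 0.54 in PANC1 (edgeR adjusted p = 0.765), -0.67 ± 0.46 in COLO357 (adjusted p = 1) and -0.23 ± 0.66 in SUIT2 (adjusted p = 0.990). The test of a difference between lines gave an unadjusted p of 0.0417 and an adjusted p of 1 in edgeR.

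With KMT2C siRNA, 8 of 9 libraries held more MUC1 than their own control, and the log2 fold change was 0.63 ± 0.33 (95% interval -0.06 to 1.32, edgeR adjusted p = 0.588). It was 0.327 without the PANC1 control, 1.03 without the COLO357 control, 0.353 with the share of read pairs in no annotated feature as a covariate and 0.292 without the 3 libraries in which that share was over 20%. By siRNA it was 0.24, 0.66 and 0.88 for siRNA1, siRNA2 and siRNA3. Between KMT2C and KMT2D siRNA it was 0.51 ± 0.26 (-0.03 to 1.06, adjusted p = 0.257).

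MUC5B resembled MUC1 in COLO357, with 14.5 CPM in the control, 10.97 and 11.9 CPM with KMT2D siRNA1 and siRNA2 and 14.7, 18.9 and 23.4 CPM with KMT2C siRNA1, siRNA2 and siRNA3. In PANC1 the control held 0.791 CPM, KMT2D siRNA 1.32 and 1.57 CPM and KMT2C siRNA 0.822, 1.33 and 0.590 CPM. In SUIT2 the control held 0.364 CPM, KMT2D siRNA 0.755 and 0.617 CPM and KMT2C siRNA 0.323, 0.400 and 0.502 CPM. KMT2D libraries were thus above control in PANC1 and SUIT2 and below it in COLO357. The fitted values were 0.87 ± 0.48, 0.91 ± 0.59 and -0.35 ± 0.39 in these lines, and the test of their difference was not passed (edgeR, unadjusted p = 0.102, adjusted p = 1). Over the lines MUC5B had a log2 fold change of 0.37 ± 0.32 with KMT2D siRNA (-0.30 to 1.05, adjusted p = 0.691) and 0.30 ± 0.31 with KMT2C siRNA (-0.33 to 0.93, adjusted p = 0.821), and by -0.07 ± 0.24 between them (adjusted p = 0.897).

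MUC13 differed widely between siRNAs of 1 target in COLO357 and SUIT2. It stood at 6.22 CPM in the COLO357 control and at 1.29 and 8.14 CPM with KMT2D siRNA1 and siRNA2, so that the siRNAs of 1 target lay far below and above it. With KMT2C siRNA1, siRNA2 and siRNA3 it stood at 6.72, 4.01 and 6.12 CPM. In SUIT2 the control held 1.36 CPM, KMT2D siRNA 1.36 and 2.38 CPM and KMT2C siRNA 0.129, 1.999 and 0.377 CPM, the lowest of these being 2 reads. SUIT2 with KMT2C siRNA1 and siRNA3 thus held 9.47% and 27.6% of the control's level, and COLO357 with KMT2D siRNA1 20.7%. The fitted log2 fold change was 0.05 ± 0.61 with KMT2D siRNA (-1.23 to 1.32, edgeR adjusted p = 0.989) and -0.33 ± 0.58 with KMT2C siRNA (-1.54 to 0.88, adjusted p = 0.914).

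MUC4 in COLO357 was highest in the control, at 0.896 CPM (19 reads), and stood at 0.430 and 0.482 CPM with KMT2D siRNA and at 0.560, 0.125 and 0.720 CPM with KMT2C siRNA1, siRNA2 and siRNA3. The log2 fold change was -0.56 ± 0.66 with KMT2D siRNA (-1.93 to 0.82, edgeR adjusted p = 0.794) and -0.72 ± 0.63 with KMT2C siRNA (-2.03 to 0.58, adjusted p = 0.780). These values rest on the COLO357 control, without which they were 0.22 and 0.07. MUC20 held 0.141 CPM in the COLO357 control (3 reads) and 0.240 to 0.350 CPM in the other 5 libraries (4 to 8 reads), a difference that is not detectable at this depth.

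**Figure D5:**
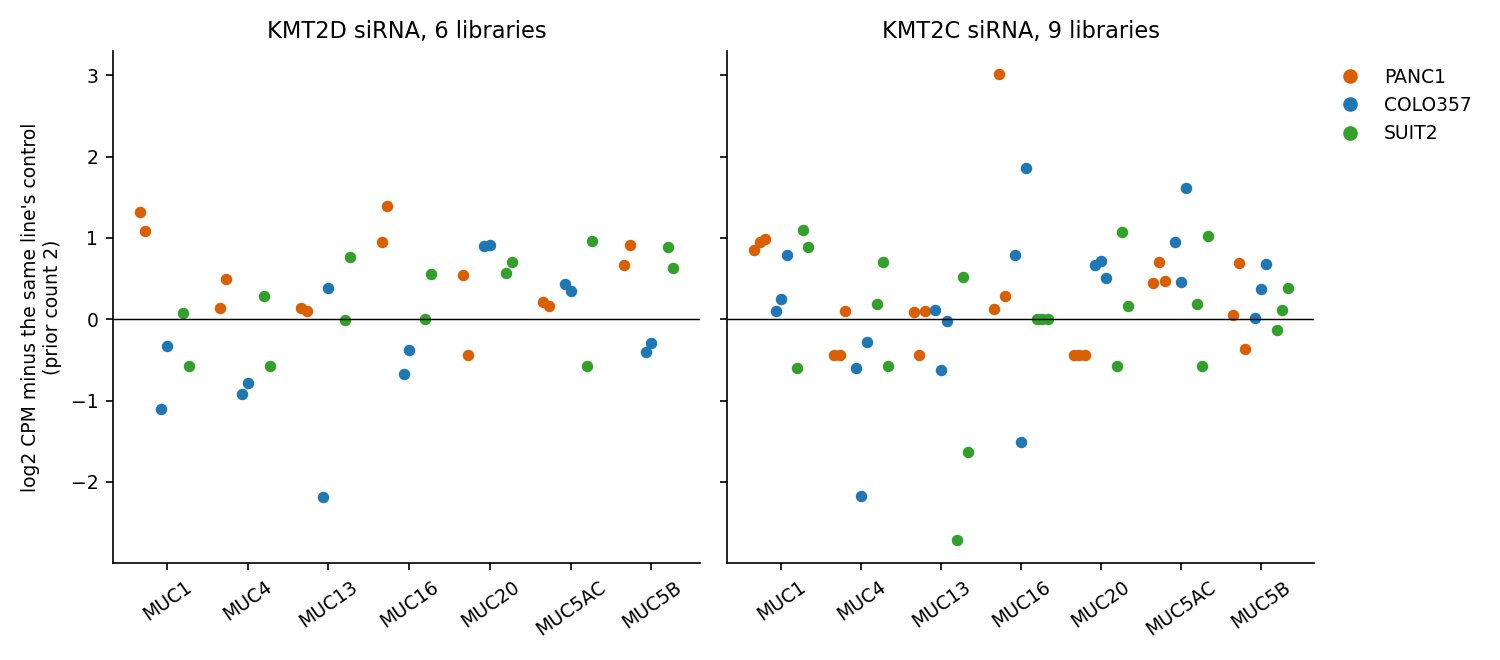
Log2 CPM of each mucin minus the log2 CPM of the same line's control library (prior count 2), 1 point per library, coloured by line, for 6 KMT2D and 9 KMT2C siRNA libraries. KMT2D points of MUC1 and MUC16 lie above 0 in PANC1 and below it in COLO357, and the KMT2C points of MUC16 run from -1.51 to 3.02, the upper one from the library labelled PANC1 KMT2C siRNA2.

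By single siRNA, edgeR and DESeq2 called 0 of 6 mucins in all 5 comparisons with control. The shares of all genes called by edgeR were 4.02% for KMT2D siRNA1, 8.92% for KMT2D siRNA2, 1.2% for KMT2C siRNA1, 5.81% for KMT2C siRNA2 and 0.623% for KMT2C siRNA3. At an unadjusted p under 0.05 edgeR counted MUC5AC with KMT2C siRNA1, MUC1 and MUC5AC with KMT2C siRNA3 and no mucin with the other 3. Of all 21028 genes tested it counted 3693 and 4720 with KMT2D siRNA1 and siRNA2. With KMT2C siRNA1, siRNA2 and siRNA3 it counted 2356, 4119 and 2213, so nothing is read from the mucin counts. DESeq2 counted MUC1 and MUC5AC with KMT2C siRNA3 only. Within single lines, where the lone control is assumed to vary like the other groups, 0 of 6 were called in each of 6 comparisons by either tool. The shares of all genes called there by edgeR were 0.0% in PANC1 and COLO357 for both targets and, in SUIT2, 0.038% for KMT2D and 0.00476% for KMT2C. MUC1 with KMT2D siRNA in PANC1 was the 1 mucin with an unadjusted p under 0.05 by either tool. In that comparison edgeR gave such a p to 1290 of 21028 genes. Tests of a difference between lines called 0.0% of all genes and 0 of 6 mucins for each target.

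Genes that build, fold, bind or cut mucins were followed beside them. Of 14 tested GalNAc transferases, which start O-glycans, 13 tested core and extension enzymes, 11 tested folding and secretion genes, 16 tested transcription factors and 9 tested sheddases and proteases, none was called against control with either target. The share of all genes called was 1.2% with KMT2D siRNA and 0.281% with KMT2C siRNA, so that lists of this size would hold few or no calls at the background rate. Of 14 tested sialyl- and fucosyltransferases FUT4, which adds fucose to make Lewis x, fell with KMT2D siRNA (log2 fold change -1.10 ± 0.21, edgeR adjusted p = 0.00955) and was not called with KMT2C siRNA. Of 13 tested receptors and partners MET, the hepatocyte growth factor receptor, rose with KMT2D siRNA (1.75 ± 0.30, adjusted p = 0.00388) and with KMT2C siRNA (1.72 ± 0.29, adjusted p = 0.00658), 2 comparisons that share the control libraries.

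Between KMT2C and KMT2D siRNA edgeR called 5.17% of all genes. Several of the genes followed beside the mucins differed there, and none of MUC1, MUC4, MUC13, MUC16, MUC5AC and MUC5B passed. At that share a set of 6 genes would hold few or no calls, so nothing is read from their absence. AGR2 was lower with KMT2C siRNA (log2 fold change -1.29 ± 0.18, edgeR adjusted p = 0.000808). The oviductal mucin OVGP1 (-1.10 ± 0.29, adjusted p = 0.0300), the GalNAc transferase GALNT1 (-0.69 ± 0.16, adjusted p = 0.0148), the sulfotransferase CHST4 (-1.76 ± 0.43, adjusted p = 0.0230) and the membrane protease TMPRSS2 (-1.34 ± 0.28, adjusted p = 0.0107) were lower too. CHST4 was read mainly in SUIT2, at 4.33 to 18.6 CPM, and TMPRSS2 mainly in PANC1, at 6.66 to 42.4 CPM. FUT4 (1.22 ± 0.17, adjusted p = 0.000808) and B3GNT5 (0.62 ± 0.16, adjusted p = 0.0300), which extends sugar chains, were higher. Among markers CFTR was lower and CDH5 higher, by log2 values of -1.49 and 1.94. CFTR was read mainly in SUIT2, with no read in PANC1. CDH5 was read mainly in COLO357, since all endothelial markers summed to at most 0.169 CPM in PANC1 and 0.194 CPM in SUIT2.

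The genes whose line-centred levels tracked each mucin most closely were listed as a description. Each line's mean log2 CPM was subtracted and Pearson's r taken over the 18 libraries, which share lines, siRNAs and depth, against 12962 genes with a mean of at least 2 CPM. MUC1 was closest to KCNC4 (0.83), ARHGEF17 (0.82) and MYH11 (0.81). MUC16 was closest to ZBTB40 (0.83), POLR2A (0.82) and IKZF4 (0.72), and MUC5AC to BRPF1 (0.84), BRD2 (0.81) and TCIM (0.75). MUC5B was closest to SCUBE3 (0.74), CNP (0.74) and ZKSCAN2 (0.74), and MUC13 to PLA2G6 (0.80), ALPG (0.78) and CRACDL (0.78). No gene was named for 2 mucins. The coefficients are the highest of 12962 and carry no test.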

How the data were processed

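Total RNA was depleted of ribosomal RNA, made into stranded libraries and read as 100 nt pairs, per the labels' protocols. FastQC, TopHat2, HTSeq, edgeR and the build hg19 are listed, without versions, per the submitters' processing notes. The authors deposited unnormalized read-pair counts by Ensembl identifier. Sources used here do not state the annotation release, the HTSeq mode or strand setting, or which sequencing pool held a library. Overlapping or antisense genes may therefore share reads, and pool was not a model term. The tables closed with 5 entries that name no gene (32.98% to 53.39% of listed read pairs), which entered neither library sizes nor tests.

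Symbols were matched by identifier for 52181 of 63677 identifiers (81.9%). edgeR 4.0.16 in R 4.3.3 was fitted to all genes passing its filter by expression (minimum count 10, minimum total 15, 21028 genes), with TMM factors of 0.946 to 1.06, robust quasi-likelihood F tests and Benjamini-Hochberg adjustment over all genes tested, with calls made at an adjusted p under 0.05. One fit had line and target, 1 had line and each siRNA, and 1 had 9 groups of line by target. The fitting was tested on simulated data. DESeq2 1.42.0, limma 3.58.1, other filters and scalings, a covariate, and leaving out each library were alternatives. CPM is a count divided by the TMM-scaled library size. Exon lengths and overlaps came from GENCODE v29 (GRCh38, not the authors' build), so they are approximate.

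All 7 members were named. From the lists of other genes, those called in a comparison of targets were named, up to 4 a list, and for each mucin with a mean of at least 2 CPM the 3 genes with the highest r. The members and lists were chosen with earlier results of these data known. Intervals and limits at 0 cover counting error only.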

Additional observations from a re-analysis of the deposited data

Results flagged for a closer look

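In 12 sets of libraries (6 tested mucins by 2 targets, 6 or 9 libraries each) the lowest or highest log2 CPM against control was compared with its neighbour by Dixon's criterion, which chance meets in about 1 in 20 sets. The criterion picked out 2. MUC13 in COLO357 KMT2D siRNA1 lay at -2.19, and MUC4 in COLO357 KMT2C siRNA2 lay at -2.18, the latter resting on 3 reads against 19 in the control.

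For 4 mucins both KMT2D siRNA libraries lay above control in PANC1 and below it in COLO357. Both libraries of a line share 1 control. How many of all genes follow this pattern was not counted, so nothing is read from the number of mucins. The mean log2 CPM against control was 1.20 in PANC1 and -0.72 in COLO357 for MUC1, 0.32 and -0.85 for MUC4, 1.18 and -0.52 for MUC16, and 0.79 and -0.35 for MUC5B, for which SUIT2 stood at 0.76. For MUC4 the PANC1 side rests on 1 read in the control and on 1 and 2 reads with KMT2D siRNA1 and siRNA2, so its direction there cannot be read at this depth. edgeR's test of the difference between lines gave an adjusted p of 1 for each of the 4, so these opposite directions did not pass a test. With 1 control library a line, an unusual control and a line-specific response cannot be told apart.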

How the results depend on the processing

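The counts of 6, 4 and 6 mucins called between lines stayed within 1.5 times under every alternative run (7, 4 and 7 with no filter, where MUC20 was tested, and 5, 4 and 5 at a minimum count of 50), and all siRNA comparisons stayed at 0 of 6 apart from 3. With no filter on low counts the number was 1 for KMT2C against KMT2D siRNA (MUC16) and 2 for KMT2C siRNA3 (MUC16 and MUC5AC). Leaving out 1 library gave 0 to 1 for KMT2C siRNA2 (MUC16, without COLO357 KMT2C siRNA2).

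Log2 fold changes that changed sign were all uncalled. With siRNA as a random replicate block in limma-voom, KMT2D against control was -0.25 for MUC1, -0.55 for MUC13, -0.25 for MUC16 and -0.0554 for MUC5B, and KMT2C against KMT2D 0.0687 for MUC13 and 0.37 for MUC5B. With a fixed block KMT2D against control was -0.18 for MUC13. Same-numbered libraries deviated together across lines at r of 0.056 to 0.379, over 0.1 in 14 of 15 pairs, and the block changed no count of called mucins. The r values of KMT2D siRNA1 and siRNA2 are equal by construction, so the 15 pairs are not all separate. Averaging 9 groups gave -0.0473 for MUC16 between targets. With the share of unannotated read pairs as a covariate MUC16 was -0.00426 for KMT2C siRNA2 and -1.37 for KMT2C siRNA3. Without the 3 libraries above 20%, chosen after seeing the data, the latter was -0.93.

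Leaving out each library in turn, KMT2D against control ran from -0.21 to 0.50 for MUC1, -0.26 to 0.47 for MUC13, -0.27 to 1.09 for MUC16, -0.73 to 0.22 for MUC4 and, in SUIT2, -0.65 to 0.0925 for MUC1. KMT2C against control ran from -1.02 to 0.0699 for MUC4, and KMT2C against KMT2D from -0.46 to 0.18 for MUC4 and -0.28 to 0.0653 for MUC5B. By siRNA, MUC16 ran from -1.02 to 1.77, -1.43 to 2.95 and -0.95 to 2.66 for KMT2C siRNA1, siRNA2 and siRNA3, MUC1 from -0.069 to 0.70 for KMT2C siRNA1 and MUC5AC from -0.44 to 0.45 for KMT2D siRNA1. The causes were not tested. Depth limits MUC4 and MUC20 in every line, MUC13 in PANC1, MUC16 in SUIT2, and MUC5AC outside COLO357.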
